A study of Mus musculus with 4 samples.

Results

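H3K27ac at 38 Wnt pathway genes was compared between chondrocyte-enriched and chondrocyte-depleted cells of the mouse fetus. The genes were the 19 Wnt ligands, the 10 Frizzled receptors and 9 secreted antagonists (Sfrp1, Sfrp2, Sfrp4, Sfrp5, Frzb, Wif1, Dkk1, Dkk2 and Dkk3). They were taken by family out of 21581 protein-coding genes, with Dkk4 left out. The signal was not a criterion, but earlier results of these data were known when the genes were chosen. Limbs and trunks of E14.5 Col2a1-EGFP fetuses were dissociated and sorted into EGFP+ and EGFP− cells, and each of the 4 populations is represented by 1 ChIP-seq library and its list of called peaks. All 4 populations carry the same homozygous reporter, an EGFP cassette with a minimal β-globin promoter inserted upstream of Col2a1 in G4 mouse ES cells, and the fetuses were derived from those cells by tetraploid aggregation and pooled. EGFP+ cells are therefore those in which the Col2a1 locus was active, and EGFP− cells are a mixture of every other cell type of the dissected tissue. Of 142206 peak intervals in the 4 lists, 871 lay within 100 kb of a start site of one of the 38 genes. These were 276 intervals in limb EGFP+, 195 in limb EGFP−, 225 in trunk EGFP+ and 175 in trunk EGFP−.

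H3K27ac marks active promoters and enhancers, the distal elements that raise transcription of a gene from a distance. Wnt proteins are secreted lipid-modified ligands that bind Frizzled receptors, and either stabilise β-catenin, which acts with TCF/LEF factors on target genes, or signal through routes that do not need β-catenin, such as planar cell polarity. The Sfrp proteins, Frzb and Wif1 bind Wnts outside the cell, whereas Dkk1 and Dkk2 bind the Lrp5/6 co-receptors. In the skeleton, high β-catenin activity is known to favour bone formation over cartilage and to act against early chondrocyte differentiation, and Wnt9a and Wnt4 are known for their roles in joint formation.

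The letters of the elements that carry the results are given first. Each of the first 6 is 200 bases of GRCm39, plus strand, centred on the strongest summit of the leading distal peak outside UTRs of a gene in the fraction that held more of its distal peaks, and is named by the gene within whose reach it lies. Capitals mark a match, on either strand, to CTTTGAT (TCF/LEF), ACAATG (SOX), TGTGGT (RUNX) or TGANTCA (AP-1), and a stretch without capitals holds none of these letters. Fzd7, Fzd9 and Fzd5 are shown for peaks of the EGFP+ lists alone, and Fzd10, Wnt9a and Wnt3a for peaks of the EGFP− lists alone. The Wnt3a element, 59.5 kb from Wnt3a, is also within reach of Wnt9a, which is closer at 43.5 kb. The nearest protein-coding start to it is that of Prss38. The seventh is centred on the limb EGFP+ summit of an element upstream of Fzd9 with peaks in all 4 lists. The last 2 are the 150 bases before the start sites of Fzd10 and Dkk2, in the direction of transcription. The promoters of these 2 genes were marked in the EGFP− lists alone. The printed stretch itself was overlapped by a peak of trunk EGFP− alone at Fzd10 and of limb EGFP− alone at Dkk2.
Fzd7 element, chr1:59588024-59588223: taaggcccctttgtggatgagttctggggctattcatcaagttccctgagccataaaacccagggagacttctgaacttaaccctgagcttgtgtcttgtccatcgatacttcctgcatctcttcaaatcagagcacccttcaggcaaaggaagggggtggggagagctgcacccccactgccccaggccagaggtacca
Fzd9 element, chr5:135286618-135286817: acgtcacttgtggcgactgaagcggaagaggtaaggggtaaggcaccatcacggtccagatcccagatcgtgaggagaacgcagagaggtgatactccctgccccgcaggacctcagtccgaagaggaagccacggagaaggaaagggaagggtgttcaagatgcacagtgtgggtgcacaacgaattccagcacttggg
Fzd5 element, chr1:64848611-64848810: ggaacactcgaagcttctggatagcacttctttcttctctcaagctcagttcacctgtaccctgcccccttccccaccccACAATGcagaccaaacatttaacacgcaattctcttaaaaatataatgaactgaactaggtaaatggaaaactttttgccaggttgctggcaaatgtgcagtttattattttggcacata
Fzd10 element, chr5:128696845-128697044: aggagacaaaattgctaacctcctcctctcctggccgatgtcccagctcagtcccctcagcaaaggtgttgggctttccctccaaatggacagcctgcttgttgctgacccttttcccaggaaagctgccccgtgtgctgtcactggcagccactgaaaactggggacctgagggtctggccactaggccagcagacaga
Wnt9a element, chr11:59285036-59285235: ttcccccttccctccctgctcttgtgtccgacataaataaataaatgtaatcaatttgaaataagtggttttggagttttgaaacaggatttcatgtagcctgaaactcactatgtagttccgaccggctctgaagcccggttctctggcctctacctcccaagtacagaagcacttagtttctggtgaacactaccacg
Wnt3a element, chr11:59241068-59241267: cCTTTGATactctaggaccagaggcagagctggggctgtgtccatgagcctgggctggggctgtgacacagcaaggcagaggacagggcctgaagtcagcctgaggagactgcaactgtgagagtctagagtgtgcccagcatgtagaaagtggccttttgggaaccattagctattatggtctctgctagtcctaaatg
Fzd9 shared element, chr5:135292774-135292973: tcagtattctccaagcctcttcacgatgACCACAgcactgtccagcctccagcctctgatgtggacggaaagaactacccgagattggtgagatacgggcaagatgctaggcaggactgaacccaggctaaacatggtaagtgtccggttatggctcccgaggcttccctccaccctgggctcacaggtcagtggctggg
Fzd10 promoter, plus strand, chr5:128677758-128677907: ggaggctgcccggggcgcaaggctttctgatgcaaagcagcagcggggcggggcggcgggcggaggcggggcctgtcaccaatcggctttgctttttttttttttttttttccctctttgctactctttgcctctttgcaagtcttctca
Dkk2 promoter, plus strand, chr3:131790893-131791042: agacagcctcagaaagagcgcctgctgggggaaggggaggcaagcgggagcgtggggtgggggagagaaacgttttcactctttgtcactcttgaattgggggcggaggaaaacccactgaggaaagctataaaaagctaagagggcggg

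Peaks over promoters, here 2 kb upstream to 500 bp downstream of any annotated start site of a gene, were frequent at Frizzled genes and sparse at Wnt genes. A promoter peak was called for 18 of the 38 genes in limb EGFP+, 13 in limb EGFP−, 14 in trunk EGFP+ and 17 in trunk EGFP−. Over all protein-coding genes the corresponding shares were 54.4%, 51.6%, 52.6% and 52.7%, and those of the 38 genes were 47.4%, 34.2%, 36.8% and 44.7%. All 10 Frizzled promoters carried a peak in at least 1 list, as did 6 of 9 antagonist promoters, whereas 11 of 19 Wnt promoters (Wnt1, Wnt2, Wnt2b, Wnt3, Wnt3a, Wnt6, Wnt7a, Wnt8a, Wnt8b, Wnt9a and Wnt9b) carried none. The 3 antagonists without a promoter peak were Sfrp4, Sfrp5 and Dkk1. A promoter without a called peak is one that did not pass the peak caller's threshold in that library, which is not the same as an absence of the mark.

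**Figure D1:**
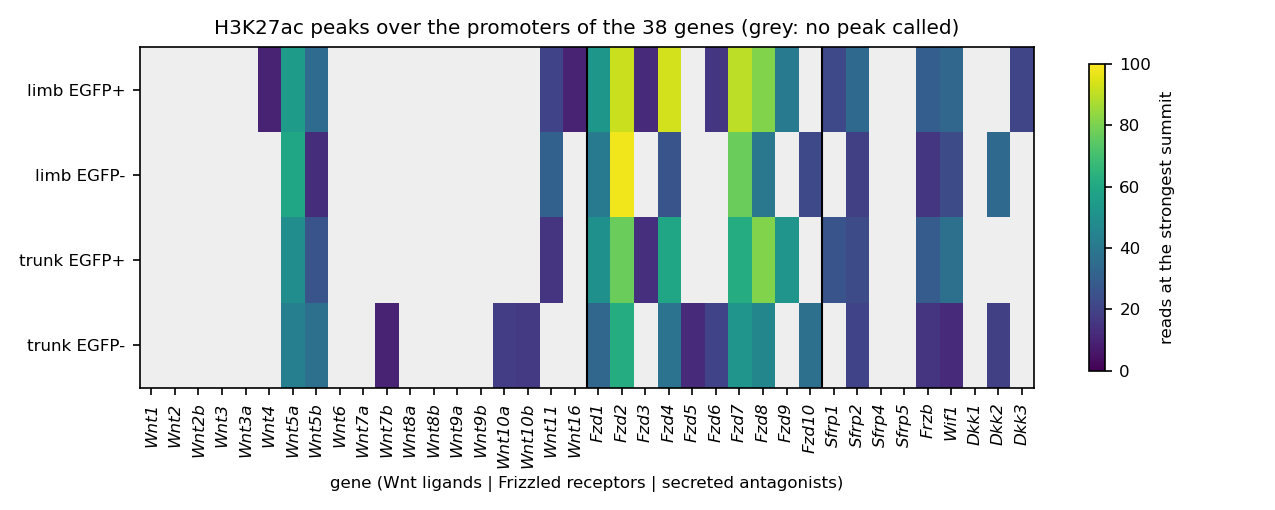
Promoter peaks of the 38 genes (columns) in the 4 lists (rows), coloured by the number of reads at the strongest promoter summit, with grey where no peak was called. Frizzled receptors fill most of their columns, 11 of the 19 Wnt columns are empty, and Fzd9 and Sfrp1 are marked in both EGFP+ lists while Fzd10 and Dkk2 are marked in both EGFP− lists.

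Peaks in all 4 lists were carried by 10 promoters, 26.3% of the 38 against 47.4% of all genes. They were those of Wnt5a and Wnt5b, 2 ligands known for signalling without β-catenin, of Fzd1, Fzd2, Fzd4, Fzd7 and Fzd8, and of the antagonists Sfrp2, Frzb and Wif1. The call of Wnt5b pools 17 start sites, and with only its outermost start it was marked in EGFP+ lists alone. With a fold of at least 4, Wnt5a and Sfrp2 were marked in EGFP+ lists alone. Frzb, a Wnt-binding protein first described in cartilage, had 30 summit reads in limb EGFP+, 16 in limb EGFP−, 29 in trunk EGFP+ and 15 in trunk EGFP−. Wif1, which binds Wnts through its own domain, had 33, 23, 37 and 12 summit reads in the same order. The EGFP+ reads were the higher ones in each tissue, but the 95% counting intervals of Wif1 overlapped in the limb, at 22.7 to 46.3 and 14.6 to 34.5 reads, and those of Frzb in the limb, at 20.2 to 42.8 and 9.15 to 26.0, and in the trunk, at 19.4 to 41.6 and 8.40 to 24.7. Fzd4, the receptor for norrin as well as for Wnts, had 93 reads in limb EGFP+ and 26 in limb EGFP−, with 59 and 38 in the trunk. Its counting intervals were apart in the limb but overlapped in the trunk, at 44.9 to 76.1 and 26.9 to 52.2 reads. Fzd2 and Wnt5a did not have the higher reads in EGFP+ in each tissue, with 92, 98, 77 and 62 reads at Fzd2 and 55, 59, 49 and 43 at Wnt5a. The background of the 4 libraries ranged from 1.49 to 1.83 reads per 200 bp, so that the raw reads of different lists are close to comparable but not equal in scale.

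In EGFP+ lists alone 6 promoters were marked, 15.8% of the 38 against 3.89% of all genes, and 6 others in EGFP− lists alone, also 15.8% against 2.76%. Only 5 of these 12 were marked in that fraction in both tissues. Fzd9, a Frizzled receptor with a known role in bone formation, had 41 reads at its summit in limb EGFP+ and 52 in trunk EGFP+, at a −log10 p of 9.79 in the limb. The secreted antagonist Sfrp1 had 22 and 26 reads, at −log10 p of 11.1 and 12.1. Fzd3, known for planar polarity and axon guidance, had 12 and 14 reads. In the opposite direction, Fzd10 had 22 reads in limb EGFP− and 37 in trunk EGFP−, and Dkk2, a modulator of Lrp5/6, had 34 and 19. For each of these 5 genes neither list of the other fraction had a peak in the promoter window. At Fzd3, peaks of 21 reads in trunk EGFP− and 16 in limb EGFP+ lay just outside it, 0.611 kb downstream of the start. With a window of 1 kb on each side, Fzd3 was no longer among the one-fraction promoters. With a fold of at least 4, Fzd9 and Fzd10 were no longer among the one-fraction promoters, and with only the outermost start of each gene Sfrp1 was not.

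The other 7 one-fraction promoters rested on a single library each. They were Wnt4 with 10 reads, Wnt16 with 10 and Dkk3 with 21 in limb EGFP+, and Wnt7b with 10, Wnt10a with 18, Wnt10b with 17 and Fzd5 with 12 in trunk EGFP−. With intervals of at least 5 on the −log10 q scale, only Fzd9 and Sfrp1 remained as EGFP+ promoters, and Fzd10 and Dkk2 were among 3 EGFP− promoters, the third being Wnt11. Wnt11 itself, a ligand known for planar polarity, had 20 reads in limb EGFP+, 31 in limb EGFP−, 15 in trunk EGFP+ and no called peak in trunk EGFP−. Fzd6, a planar polarity receptor, had 16 reads in limb EGFP+ and 20 in trunk EGFP−, with no peak in the other 2 lists.

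The start sites of the unmarked members were rich in GC and CpG. Over 250 bases on each side of the canonical start, the 14 members without a promoter peak had a median GC content of 66.8%. Their median ratio of observed to expected CpG was 0.706. The corresponding values were 49.4% and 0.222 for 8906 of the 8907 unmarked genes in general. The 24 marked members had 63.0% and 0.797, close to the 61.2% and 0.770 of 12674 marked genes. Within the Wnt ligands, the 11 unmarked promoters had a median GC content of 70.6% and the 8 marked ones 62.8%. Wnt9a reached 74.6% with a CpG ratio of 1.01 without a peak in any list, while Wnt8a and Wnt8b were low, at 57.2% with 0.197 and at 51.2% with 0.399.

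Outside promoters, the 38 genes had 273 distal regions within 100 kb, formed by joining overlapping distal intervals of the 4 lists. Of these, 134 (49.1%) carried peaks of EGFP+ lists alone, 71 (26.0%) of EGFP− lists alone and 68 of both fractions, 42 of the latter in all 4 lists. The corresponding shares over 33967 distal regions near any protein-coding gene were 45.0% and 29.7%. Among regions of 1 fraction, EGFP+ regions made up 65.4% (exact 95% interval 58.4 to 71.9) near the 38 genes and 60.2% near all genes, a value inside that interval. The reach of 26 of the regions took in 2 of the genes, since Wnt3a and Wnt9a, Wnt1 and Wnt10b, Wnt6 and Wnt10a, and Wnt3 and Wnt9b are neighbours, and for 173 of the 273 the nearest protein-coding start belonged to one of the 38. The lists differed in length, from 30716 intervals in trunk EGFP− to 40899 in limb EGFP+, and with all lists held to the shortest the share was 58.4% (50.2 to 66.3) against 48.9% for all genes. The lower bound also lay above the value for all genes within 50 kb (61.8 against 60.5), within 200 kb (60.2 against 60.1) and with nearest regions only (60.5 against 60.2). It lay below that value with a −log10 q of at least 5 (62.9 against 68.4) and with an overlap of at least 50% (57.8 against 60.0). The same held with a peak within 1 kb counted as present (56.4 against 60.1) and with the outermost start only (57.6 against 60.0). With a fold of at least 4 the share itself was 63.2% (52.6 to 72.8), below the 64.7% of all genes.

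By family, the Frizzled receptors had 52 EGFP+ and 17 EGFP− regions, or 75.4% (63.5 to 84.9), the antagonists 33 and 14, or 70.2% (55.1 to 82.7), and the Wnt ligands 49 and 40, or 55.1% (44.1 to 65.6). The lower bound for the Frizzled receptors lay above the value for all genes, and the intervals of the other families included it. These intervals cover counting error only, neighbouring regions often belong to 1 broader domain, and with 1 library per population no test between populations could be made. When only intervals of at least 4-fold over local background were kept, the Frizzled share was 61.8% against 64.7% for all genes. Its interval also included the value for all genes with a −log10 q of at least 5 (64.4 to 90.9 against 68.4), with a peak within 1 kb counted as present (59.0 to 84.4 against 60.1) and within 200 kb (58.7 to 76.6 against 60.1). The antagonist share fell below the value for all genes at both stricter thresholds. It was 60.9% against 64.7% with a fold of at least 4, and 61.9% against 68.4% with a −log10 q of at least 5. More EGFP+ than EGFP− regions were found at 8 of 10 Frizzled genes, 6 of 9 antagonists and 9 of 19 Wnts, together 60.5% of the 38 genes against 40.4% of all genes. More EGFP− regions were found at 1, 2 and 5 genes, 21.1% against 24.2%. The counts were equal at 7 of the 38 genes and at 7633 of 21581 genes, ties that include genes with no region. Both shares therefore also depend on how many regions a gene has.

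**Figure D2:**
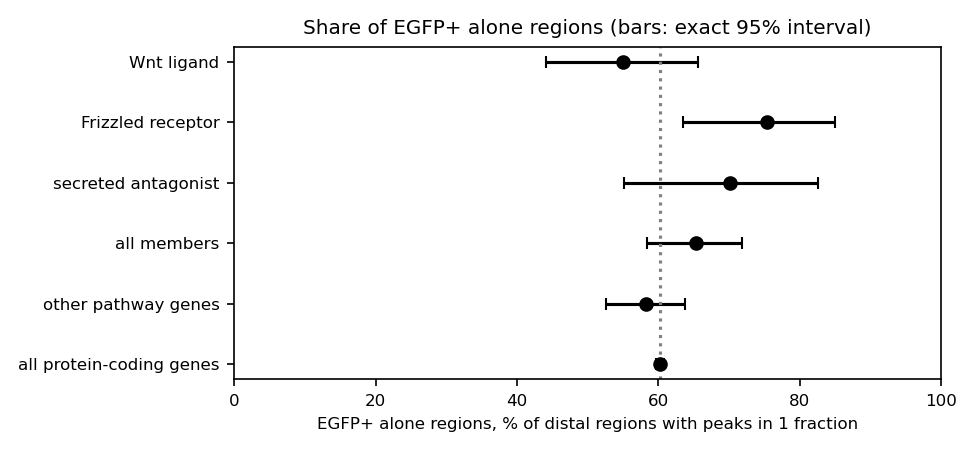
Share of EGFP+ regions among distal regions with peaks in 1 fraction (horizontal axis, %), with exact 95% intervals for counting error, for the 3 families, all 38 genes, 48 other pathway genes and all protein-coding genes (dotted line at 60.2%). Only the bar of the Frizzled receptors lies wholly to the right of the dotted line.

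**Figure D3:**
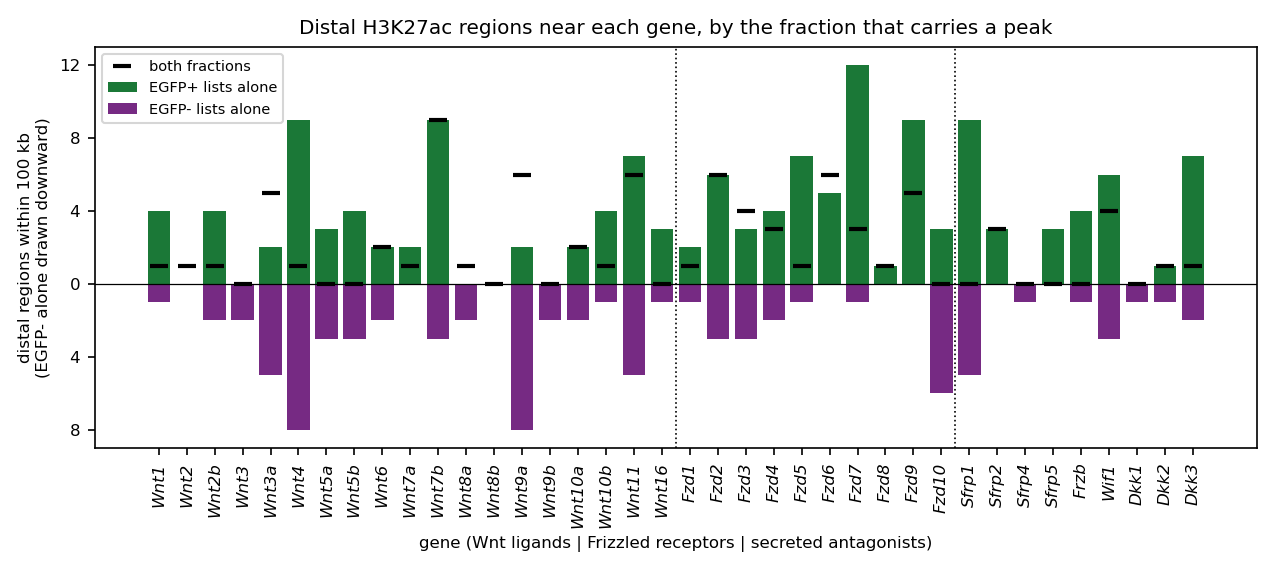
Number of distal regions within 100 kb of each gene with peaks in EGFP+ lists alone (upward bars), in EGFP− lists alone (downward bars) and in both fractions (black marks). Fzd7 reaches 12 EGFP+ regions and Fzd9 has 9 with no downward bar, while Wnt9a has 8 EGFP− regions and 2 EGFP+ regions.

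Many of the regions were called in 1 tissue alone. Of the 134 EGFP+ regions, 39 had peaks in both tissues, 63 in the limb alone and 32 in the trunk alone. Of the 71 EGFP− regions, 14 were found in both tissues, 36 in the limb alone and 21 in the trunk alone. The share found in both tissues was 29.1% for EGFP+ and 19.7% for EGFP−, against 24.4% and 15.7% for all genes. It was highest in EGFP+ regions near Frizzled genes, at 36.5%. Limb libraries were sequenced on 1 lane and trunk libraries on another, and the effects of tissue and lane cannot be told apart.

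Among receptors, Fzd7 had the highest excess of EGFP+ regions, 12 against 1, a difference reached or exceeded by 0.686% of all genes. Fzd7 is a receptor for both β-catenin and planar polarity signals. Of the 12, 10 followed each other without any other kind of distal region between them, the first 16.2 kb upstream and the last 84.6 kb downstream. The Fzd7 promoter, marked in all 4 lists, lay within this run. The regions at 1.05 and 2.07 kb downstream were trunk EGFP+ peaks in an exon of Fzd7. The strongest of the 12, at chr1:59587724-59588293 within an intron of Gm973 66.5 kb downstream, had 28 reads in limb EGFP+ and 33 in trunk EGFP+. Peaks in both EGFP+ lists, with none in either EGFP− list, were also called at 26.6 kb (20 and 16 reads), 53.1 kb (23 and 19) and 67.3 kb (27 and 19) downstream. Those from 26.6 kb on lay nearer to the start of Gm973 than to that of Fzd7, and counting nearest regions only left a difference of 4. An EGFP+ region at 59.1 kb upstream and the single EGFP− region, 58.8 kb upstream, were adjacent to each other.

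Fzd9 had 9 EGFP+ regions and no EGFP− region, a difference matched or exceeded by 1.40% of genes. With 4 regions of both fractions, 7 of the 9 formed a cluster between 6.40 and 31.9 kb upstream of the gene, all nearest to Fzd9. At chr5:135286486-135286903, 6.40 kb upstream, limb EGFP+ had 72 reads and trunk EGFP+ 47, with no peak in either EGFP− list. Regions at 24.7 and 25.6 kb upstream had 59 and 60 reads in limb EGFP+ and 56 and 58 in trunk EGFP+. Where EGFP− peaks were called in the cluster they were lower, as described below. Fold values over local background were small here despite the high reads, 2.99 at the promoter in limb EGFP+, and with a minimum of 4-fold the difference turned to −2.

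Fzd5, a receptor known from eye and vascular development, had 7 EGFP+ regions and 1 EGFP− region, although its promoter was called in trunk EGFP− alone. The EGFP+ region nearest to the start lay 0.59 kb downstream, just outside the promoter window, with 14 limb EGFP+ reads. With a window of 1 kb on each side, Fzd5 was no longer among the promoters marked in EGFP− lists alone. Of the 7, 5 were limb peaks and 2 were trunk peaks, with 10 to 24 reads, and none was found in both tissues. The strongest by p lay 53.9 kb upstream, in a UTR of Plekhm3. Fzd6 had 5 EGFP+ regions and no EGFP− region. The region at chr15:38905003-38905487, 35.6 kb downstream of Fzd6, had 36 reads in limb EGFP+ and 15 in trunk EGFP+, but it lay nearest to Cthrc1, a collagen triple helix repeat gene, and no EGFP+ region of Fzd6 was nearest to Fzd6 itself.

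Fzd10 ran the other way, with 6 EGFP− and 3 EGFP+ regions, a difference at or below which 5.35% of genes lay. All 6 EGFP− regions were downstream, from 17.0 to 66.7 kb. The region at chr5:128696611-128697204, 18.7 kb downstream, had 15 reads in limb EGFP− and 28 in trunk EGFP−, and that at 35.8 kb had 15 and 18. The 3 EGFP+ regions were limb peaks of 14, 12 and 7 reads, and no distal peak near Fzd10 was called in trunk EGFP+. Promoter and distal peaks of Fzd10 thus pointed to the same fraction, but the distal difference was small. It went from −3 to −1 within 50 kb and to −1 with nearest regions only, and was −4 with a −log10 q of at least 5. The other Frizzled genes had differences between 0 and 3, with Fzd2 at 6 against 3, Fzd4 at 4 against 2, Fzd1 at 2 against 1, Fzd8 at 1 against 0 and Fzd3 at 3 against 3.

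**Figure D4:**
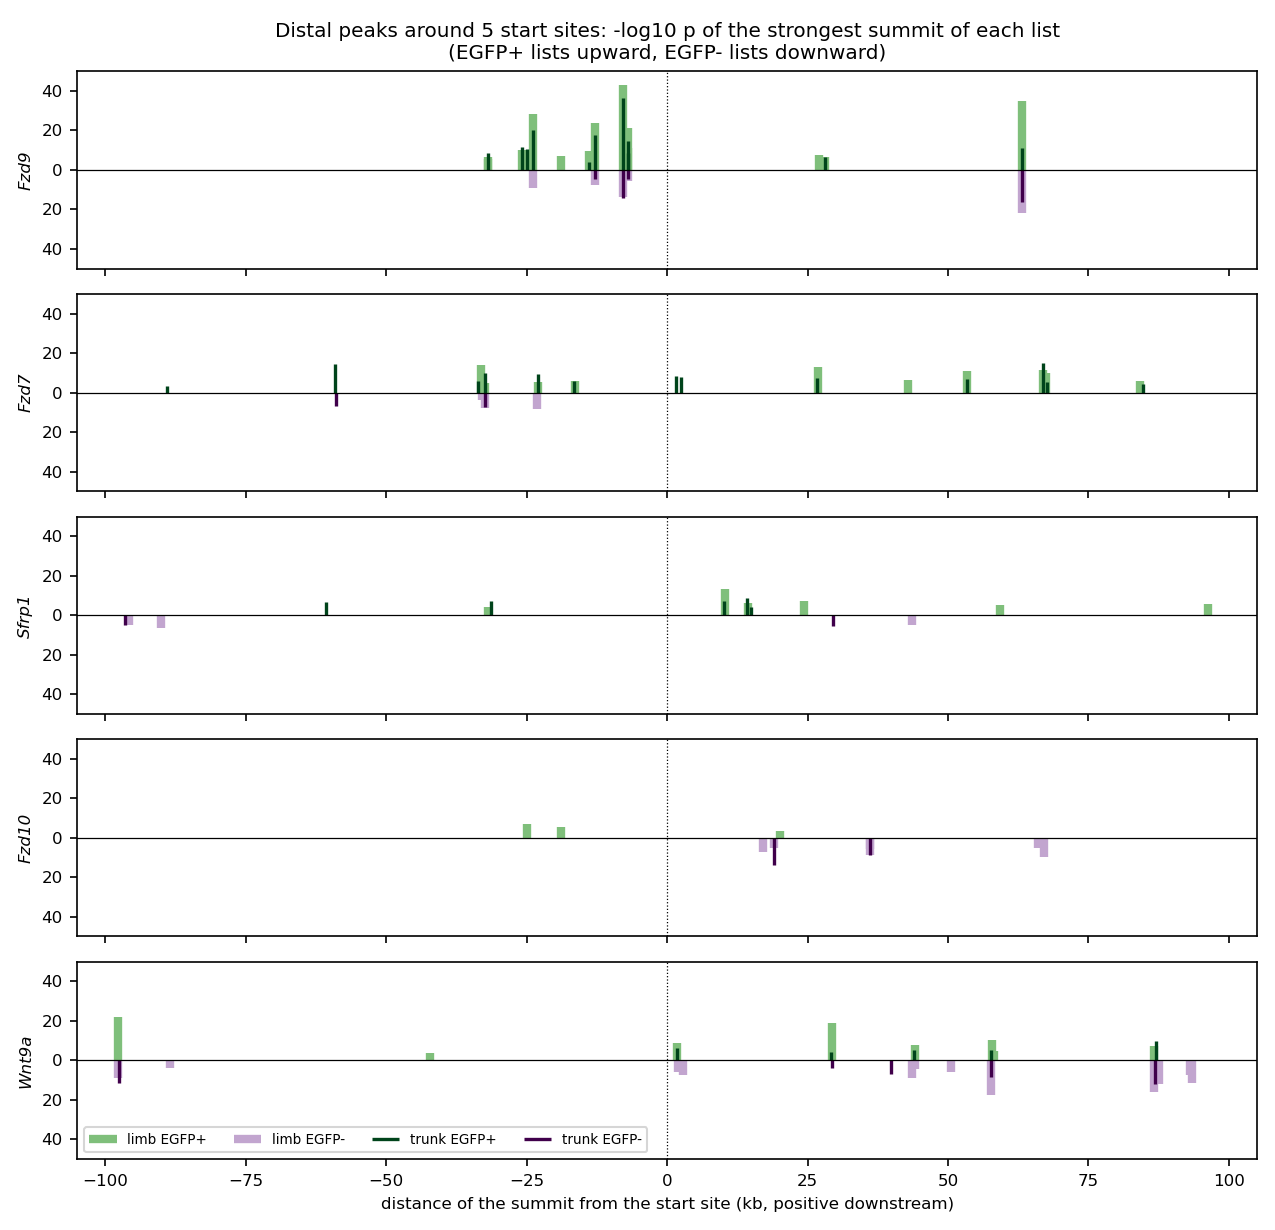
Distal peaks around the start sites of Fzd9, Fzd7, Sfrp1, Fzd10 and Wnt9a, by distance from the start (kb, positive downstream), with the −log10 p of each list's strongest summit drawn upward for EGFP+ and downward for EGFP− lists. Wide light bars are limb and narrow dark bars trunk. The Fzd9 cluster between 6.40 and 31.9 kb upstream stands above the line, and the downstream peaks of Fzd10 stand below it.

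Among the ligands, Wnt7b had the most distal regions, 21, of which 9 carried EGFP+ peaks alone, 3 EGFP− peaks alone and 9 both. Wnt7b is a β-catenin ligand of skin and of developing bone. EGFP+ regions with peaks in both tissues lay 23.5 kb (30 and 31 reads in limb and trunk), 24.4 kb (26 and 26) and 96.6 kb upstream (71 and 68), and 57.7 kb downstream (23 and 16). The region 96.6 kb upstream, at chr15:85562782-85563975, was nearest to Ppara. An EGFP− region at 18.1 kb upstream had 15 limb and 20 trunk reads, between the promoter, called in trunk EGFP− alone, and these EGFP+ regions. With any peak within 1 kb counted as present, the Wnt7b difference went from 6 to 2.

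Wnt9a and Wnt3a, divergently transcribed neighbours on chromosome 11, had more EGFP− regions. Wnt9a had 8 against 2, a difference at or below which 0.695% of genes lay, and Wnt3a, which shared 12 regions with it, had 5 against 2. The strongest EGFP− regions of Wnt9a, at chr11:59284827-59285354 and chr11:59290911-59291158, had 42 and 36 reads in limb EGFP− and none called in the other 3 lists. Of its 8 EGFP− regions 7 were called in limb EGFP− alone and the eighth in trunk EGFP− alone, and 6 lay nearest to Prss38 rather than to Wnt9a. With a minimum −log10 q of 5 the Wnt9a difference was 0 and that of Wnt3a was 2, so neither kept its direction at the stricter threshold. Wnt4, the other joint-associated ligand, had 9 EGFP+ and 8 EGFP− regions. One EGFP+ region 44.8 kb upstream had 21 limb and 16 trunk reads, and an EGFP− region 6.18 kb downstream, in an intron of Wnt4, had 17 limb and 27 trunk reads.

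The remaining ligands had few regions. Wnt3 and Wnt9b shared 2 trunk EGFP− regions of 11 and 13 reads, Wnt8a had 2 limb EGFP− regions of 11 and 8 reads, and Wnt8b had no distal region and no promoter peak. Wnt5a, with the mark at its promoter in every list, had 3 regions of each fraction, and Wnt5b had 4 EGFP+ and 3 EGFP−. Wnt1 and Wnt10b shared 4 EGFP+ regions and 1 EGFP− region, with the nearest starts those of other genes. Wnt2b had 4 EGFP+ and 2 EGFP− regions, among them chr3:104968596-104969462 with 51 and 26 reads in limb and trunk EGFP+. Wnt16 had 3 and 1, Wnt7a 2 and 0, Wnt6 and Wnt10a shared 2 and 2, and Wnt2 had a single region of both fractions. Wnt11 is described in the closing section.

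Among the antagonists, Sfrp1 had 9 EGFP+ and 5 EGFP− regions. Its 4 EGFP+ regions between 9.89 and 24.2 kb downstream lay within an intron of the gene, and the strongest, chr8:23911152-23911818, had 31 limb and 26 trunk EGFP+ reads. The 5 EGFP− regions had 11 to 14 reads and each was found in 1 tissue. Dkk3, a divergent Dkk protein, had 7 EGFP+ and 2 EGFP− regions, a difference of 5. That difference was 6 with nearest regions only, but 1 with a −log10 q of at least 5 and 1 with a fold of at least 4. Of the EGFP+ regions, 5 lay in introns of Dkk3, from 10.9 to 37.0 kb downstream, and a region 10.8 kb upstream had 15 limb and 20 trunk EGFP+ reads. Frzb had 4 EGFP+ regions and 1 EGFP− region, led by chr2:80217311-80218066, 59.9 kb downstream, with 26 and 24 reads.

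Wif1 had 6 EGFP+ and 3 EGFP− regions, which fell on different sides of the start. Of the 6 EGFP+ regions 5 were upstream, in or near Lemd3, and the 3 EGFP− regions lay within introns of Wif1, 6.88, 21.2 and 55.4 kb downstream. Sfrp5 had 3 EGFP+ regions, of which chr19:42182055-42182650 had 21 limb and 25 trunk reads, and Sfrp2 had 3 EGFP+ regions and none of EGFP− alone. Dkk1, the Lrp5/6 antagonist, had 1 region, chr19:30428229-30428911, 98.2 kb downstream, with 28 reads in limb EGFP− and 12 in trunk EGFP−. Sfrp4 had 1 trunk EGFP− region of 14 reads, and Dkk2 had 1 region of each kind.

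Peak height was compared in regions where both fractions of a tissue had a distal peak. Summit reads were divided by the background of their library, from the genome-wide term of the peak caller. In the limb, 38 of 51 such regions were higher in EGFP+ (74.5%, against 68.1% of 5630 regions near all genes), with a median log2 ratio of 0.52 against 0.29. In the trunk, 27 of 44 were higher in EGFP+ (61.4%, against 68.5% of 4828), with a median of 0.18 against 0.25. As a group, shared elements of these genes therefore stood close to the genome-wide values.

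Single elements stood far from them. The 3 highest limb ratios that were also measured in the trunk belonged to Fzd9 and Wnt2b. At chr5:135292471-135293656, 12.4 kb upstream of Fzd9, there were 80 reads in limb EGFP+ and 13 in limb EGFP−, with 63 and 11 in the trunk, log2 ratios of 2.75 and 2.71. The 95% counting intervals were 63.4 to 99.6 and 6.92 to 22.2 reads in the limb. At 7.43 kb upstream the reads were 109 and 24 in the limb and 94 and 25 in the trunk. An element 32.1 kb upstream of Wnt2b, chr3:104901385-104902182, had 82 and 14 reads in the limb and 62 and 24 in the trunk, although Wnt2b had no promoter peak in any list. The lowest limb ratio was at chr11:59284156-59284642, 86.6 kb downstream of Wnt9a, with 15 reads in limb EGFP+ and 47 in limb EGFP−, and 20 and 34 in the trunk. An element 28.9 kb upstream of Wnt7a had 60, 70, 40 and 48 reads in the 4 lists, showing little difference between fractions in a gene whose promoter was unmarked.

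**Figure D5:**
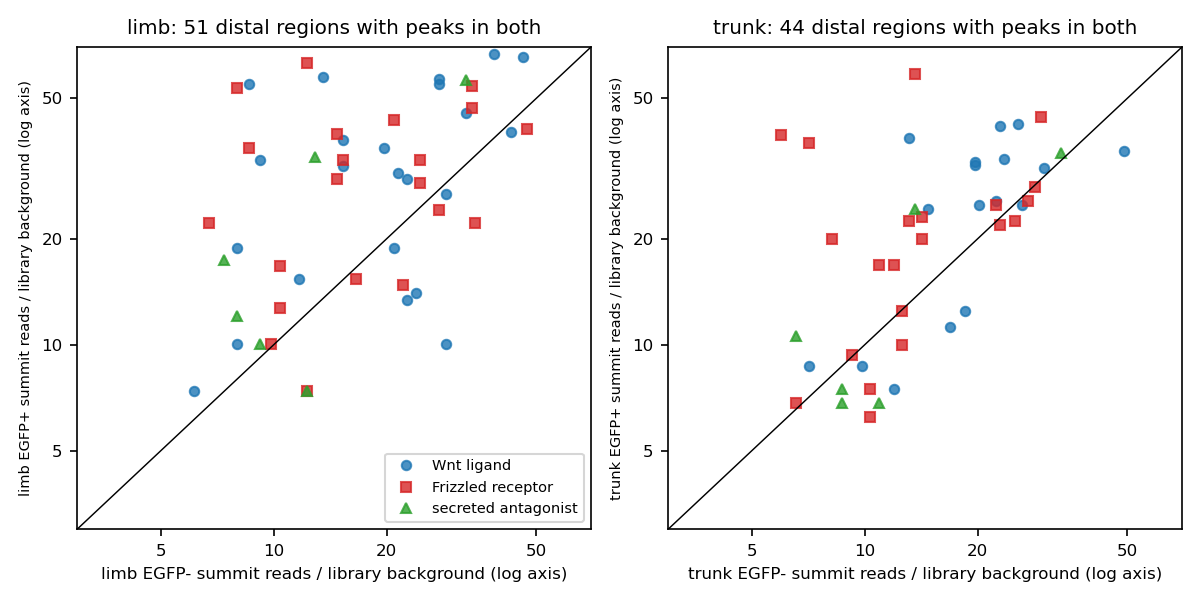
Summit reads over library background in EGFP+ (vertical, log axis) against EGFP− (horizontal, log axis) for distal regions with distal peaks in both fractions of the limb (51 regions, left) or trunk (44 regions, right), by family of the nearest of the 38 genes. The line marks equal height, and most points lie above it, with Frizzled points at upper left from the Fzd9 cluster.

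In position, EGFP+ regions lay at a median of 41.5 kb from the nearest of the genes and EGFP− regions at 55.8 kb, and regions of both fractions at 36.4 kb. Regions of 1 fraction were short, with median widths of 288 and 272 bp against 656 bp for those of both, and their strongest summits had median −log10 p of 6.90 and 6.25 against 15.1. Of the EGFP+ regions 75 were intergenic, 44 intronic, 7 in other exons and 8 in UTRs, and of the EGFP− regions 40, 27, 3 and 1. Motif content was near that of all distal regions. CTTTGAT was found in 7 of 273 regions (2.56%, against 2.81%), ACAATG in 22 (8.06% against 8.53%), TGTGGT in 35 (12.8% against 14.4%) and TGANTCA in 14 (5.13% against 5.12%). By fraction, CTTTGAT was present in 5 of 71 EGFP− regions and 1 of 134 EGFP+ regions, 7.04% and 0.746%, against 3.24% and 2.74% of all regions of those kinds. These counts are small, and a match of letters is not a bound site.

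For the rest of the pathway, 48 other genes were counted in the same way. They had 184 EGFP+ and 132 EGFP− distal regions, an EGFP+ share of 58.2% (52.6 to 63.7) against 60.2% for all genes. Of their 48 promoters, 28 were marked in all 4 lists, against 47.4% of all genes. The cytoplasmic group, which includes β-catenin, Axin and Dishevelled genes, was marked in all 4 lists at 9 of 11 promoters, and the R-spondins and their receptors at 0 of 9. In EGFP+ lists alone 2 of the 48 promoters were marked, against 3.89% of all genes. They were those of the co-receptor gene Lrp5 and of Nkd1, an intracellular inhibitor. In EGFP− lists alone 2 of 48 were marked, Rnf43 and Kremen2, against 2.76% of all genes. These counts are too small to set apart from the values for all genes. Rnf43, a ligase that removes Frizzled receptors, had 0 EGFP+ and 4 EGFP− regions. Axin2, a common target of β-catenin signalling, was marked in all 4 lists, with 8 EGFP+ and 10 EGFP− regions.

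The labels of the fractions were checked against cell type markers. Promoter peaks were called at 9 of 9 chondrocyte genes in both EGFP+ lists, at 4 in limb EGFP− and at 3 in trunk EGFP−, and these genes had 121 EGFP+ against 14 EGFP− distal regions. Of 6 connective tissue and tendon genes, 4 were marked in each EGFP− list, 3 in limb EGFP+ and 2 in trunk EGFP+. Of 4 perichondrium and bone genes, 4 were marked in each EGFP+ list, 3 in limb EGFP− and 2 in trunk EGFP−, with 43 EGFP+ against 7 EGFP− distal regions. Of 4 neural and neural crest genes, Sox10 was marked in limb EGFP+ alone and Tubb3 in trunk EGFP− alone, with 9 against 3 regions. Promoters of 5 muscle, 5 epithelial, 4 endothelial and 4 blood genes were unmarked in both EGFP− lists, although such cells are part of these tissues. Of the muscle genes Myog was marked in limb EGFP+, and the 5 had 9 EGFP+ against 7 EGFP− regions. The part of cell mixture in the peaks near the Wnt genes was not tested, and a mark present in few cells of a fraction cannot be told apart from a weak mark in many.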

How the data were processed

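H3K27ac ChIP-seq was made by the authors from sorted EGFP+ and EGFP− cells of E14.5 limbs and trunks, with 1 library per population. Per the labels, reads were processed with cutadapt 1.18, Bowtie2 2.3.5.1, SAMtools and MACS2 2.2.7.1 on GRCm39; no control library is named. Reads were of 50 or 100 bases, and more than 1 sonicator is named, without assignment to libraries. The peak names of trunk EGFP− carry another replicate number than its label, which was followed. The deposited peak lists give a score, a fold (ratio) over local background, and −log10 p and −log10 q for each summit. All summits had −log10 q of at least 1.3.

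Rows of one start and end were joined into intervals. Summit reads were recovered from fold and p under the MACS2 Poisson model, for 100% of summits within a relative tolerance of 0.0001; library totals were not given. Median summit reads were 26 to 29 per library. Start sites were the 67388 of protein-coding transcripts in GENCODE vM39 (GRCm39). Distal intervals, which overlap no promoter window, were joined by 1 bp into regions, and a list was present where any of its intervals overlapped the region. In 8 of 273 regions at least 1 list was present through a promoter interval alone. Heights used distal intervals alone. Intervals for shares are exact (Clopper-Pearson) and those for reads exact Poisson, both at 95%.

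Genes given in full were those with promoters marked in 1 fraction, and the 5 highest and 5 lowest by EGFP+ minus EGFP− regions, with ties; elements shown for height were chosen after their values were seen. The members and lists were chosen with earlier results of these data known. Steps were tested on simulated data. No test between populations was possible. Python 3.11.15, pandas 2.3.3 and scipy 1.17.1 were used.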

Additional observations from a re-analysis of the deposited data

Results flagged for a closer look

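Wnt11 was singled out because the difference between fractions had opposite signs in the 2 tissues. Its EGFP+ minus EGFP− count of distal intervals was 6 in the limb, from 12 and 6 intervals, and −2 in the trunk, from 7 and 9. The strongest EGFP+ region, chr7:98586239-98586657, 98.2 kb downstream in a UTR of Uvrag, had 42 reads in limb EGFP+ and 18 in trunk EGFP+, so this element was shared by the EGFP+ fractions of both tissues. The limb count was raised by regions of 13 to 15 reads found in limb EGFP+ alone, at 83.5 and 71.5 kb upstream and 12.1 and 99.0 kb downstream. The trunk count was lowered by 3 regions in or near Uvrag, 55.8, 56.4 and 71.4 kb downstream, with 16, 21 and 16 reads in trunk EGFP− alone. A shared element 53.8 kb upstream had 20 reads in limb EGFP+ and 37 in limb EGFP−, with 18 and 31 in the trunk. The difference between tissues was not tested, since each count comes from 1 library, and the 2 tissues were sequenced on different lanes.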

How the results depend on the processing

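The EGFP+ shares were recomputed under 9 alternatives. With a −log10 q of at least 5 the share was 72.7% for all 38 genes and 71.1% for the Wnt ligands, while that of all protein-coding genes was 68.4%. With a fold of at least 4 it was 65.8% for the Wnt ligands and 61.8% for the Frizzled receptors, against 64.7%. Promoters marked in all 4 lists went from 10 to 6 at the q threshold and to 2 at the fold threshold. Those in EGFP+ lists alone went from 6 to 2 at the q threshold. Those in EGFP− lists alone went from 6 to 3 at the q threshold (Dkk2, Fzd10 and Wnt11) and to 3 at the fold threshold (Dkk2, Fzd5 and Wnt11). The difference in regions changed sign for Wnt3a, from −3 to 2 at the q threshold, 1 at the fold threshold and 1 with nearest regions only. It also changed sign for Wnt9a, to 1 at the fold threshold, for Fzd9, to −2 at the fold threshold, and for Wnt8a, to 3 within 200 kb. For the 12 genes compared, 57 of 108 values moved little, 45 moved and 6 changed sign. The causes were not tested. No library was left out, since each population had 1. No paired analysis was possible because no fit was made: each population had 1 library, and a list holds no value where no peak was called. Depth limits what is called, and peaks near the threshold in 1 library may be missed in another.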
